A study of Mus musculus with 10 samples.

Results

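The genes described here are 60 genes annotated to actin cytoskeleton organization in cultured mouse microglia, chosen from the 18976 genes that the array table names singly. A gene was taken when its row named a single symbol and its biological process annotation held exactly that term. The term stood in 81 rows, of which 70 named 1 symbol, 8 named several and 3 named none. The 70 rows covered 66 genes, and 6 of these were left out by rule: Pdgfa, Pdgfb, Rac1, Elmo1, Arhgef17 and Arhgef18. The row with the highest median expression was kept for a gene with more than 1 row, so the level itself chose the row for 4 of the 60 genes. Microglia were primary cells of C57BL/6 mice, shaken off mixed glial cultures of newborn pups and kept without serum. For all samples the mixed culture is recorded at day 14. A group of 5 arrays came from control cells at 24 h and a group of 5 from cells given 5 ng/ml recombinant human TGFb1 for 24 h. The sources used here do not state whether replicate arrays represent separate cultures.

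Every value below is a level, the authors' median expression value of a row on a linear intensity scale after RMA, a method that corrects, scales and summarises the probes of an array. The table does not state over which arrays the median was taken. It was treated here as 1 pooled value for the series with no split by treatment, so it has no SD, and no difference between control and TGFb1-treated cells was analysed here. Levels of different genes were read with different probes, and intensity is not scaled to transcript length. Among the 1185 genes measured by several rows, the highest row of a gene lay a median of 2.10-fold above the lowest (quartiles 1.30 and 4.55). Orders of genes closer than that are not read as orders of transcript abundance. As a reference for weak signal, the 95th percentile of 373 olfactory receptor genes was used, an intensity of 11.5. In these bulk samples fewer cells of a type and less RNA per cell cannot be told apart.

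Actin exists as monomers and as filaments, and cells move and engulf by adding monomers at filament ends beneath the membrane. Monomer-binding proteins hold or deliver the subunits, formins and the Arp2/3 complex start new filaments, capping proteins end their growth, and small GTPases with their kinases decide where this happens. In microglia, the macrophages of the brain, this machinery is known for moving fine processes and for closing phagocytic cups.

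The cells carried the signal of microglia. All 10 microglial marker genes lay above the reference level, with a median of 803, and the lowest was P2ry12 at 40.4. Trem2 at 1956 and Csf1r at 1721 were among the highest. Markers of other cells were mostly near it: the medians were 8.28 for 8 astrocyte genes, 8.31 for 9 oligodendrocyte lineage genes and 9.84 for 10 fibroblast and mural cell genes, with 3 genes above the reference in each list. These included Cnp at 86.6, Cspg4 at 58.0, Aldoc at 48.9 and Acta2 at 37.3. Of 5 endothelial genes 1 was above it, and of 5 neuronal genes 3 were measured and none was above it. Of 9 border macrophage and monocyte genes 8 were measured and 4 were above it, led by Ms4a7 at 2052 and Mrc1 at 156. The part of any other cell type in the levels below was not tested.

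As a group the actin genes were well expressed. Their median intensity was 91.6 (quartiles 11.8 and 314), beside 15.8 for all genes, and 44 of the 60 lay above that overall median. The upper quartile of all genes, 73.4, was passed by 32 of the 60 (53.3%), and the 90th percentile, 209, by 19 (31.7%). The reference level was passed by 45 genes (75%), beside 56.5% of all genes. The levels ran from Xirp2 at 3.34 to Cap1 at 3742, so the group held some of the strongest signals on the array together with genes at the floor. At the reference level, Xirp1 at 11.9 was just above and Bcar1 at 11.4 just below. Another 244 measured genes, from chosen lists of these roles and of actins, the Arp2/3 complex and tropomyosins, had a median of 72.0. Of these genes 76.2% were above the reference level, so the group stood close to them. The lists hold Rac1 and Elmo1, which were left out of the group by rule.

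**Figure D1:**
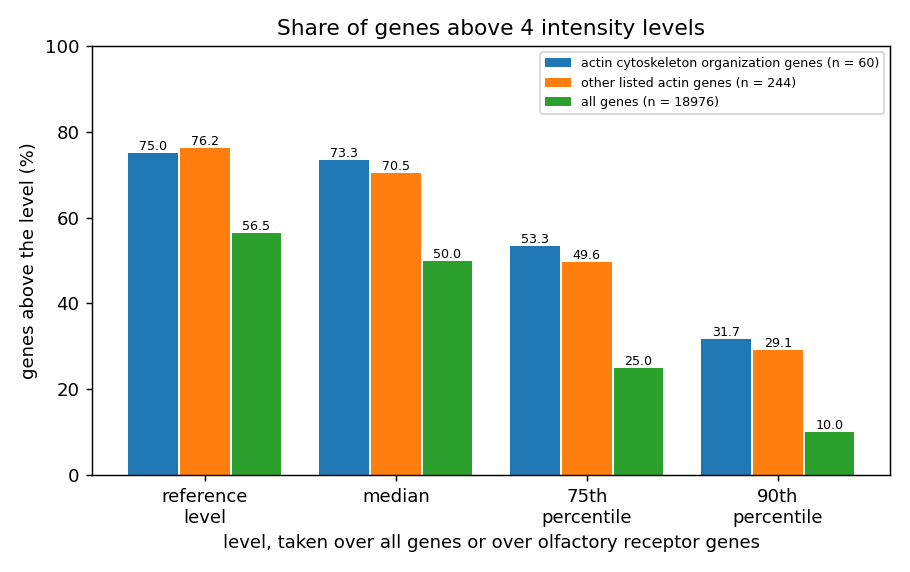
Share of genes (%) above the reference level and above the median, 75th and 90th percentile of all genes, for the 60 described genes, 244 other listed actin genes and all 18976 genes. The described genes and the other actin genes are close to each other at every level, with 75% and 76.2% above the reference level against 56.5% of all genes.

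Proteins that bind actin monomers gave the highest levels. Cap1, the cyclase-associated protein that recharges monomers after they leave a filament, was the highest of the 60 genes at 3742, the 99.8th percentile of all genes. Tmsb4x, thymosin beta 4, which holds monomers in reserve, followed at 2640. Pfn1, the profilin that feeds monomers to growing ends, came after it at 1816. These 3 levels are too close together to be read as an order of transcript abundance. The second thymosin, Tmsb10, read 205, which left Tmsb4x 12.9-fold above it. The other profilins of the group, Pfn2, known from neurons, and Pfn4, known from testis, read 8.48 and 7.12, both under the reference level. Of the 3 profilins in the group, Pfn1 alone was above it. Pfn3 was measured in rows shared with another symbol, at 13.1, above the reference level, and at 9.65, under it. Outside the group, the strongest genes of this role were Cfl1, the filament-severing cofilin, at 4326 and Wdr1, its partner in disassembly, at 1328.

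The promoter windows of the profilins in the group are shown because Pfn1 was among the strongest genes and its paralogs Pfn2 and Pfn4 were under the reference level. Each runs from 250 bases before to 50 after the RefSeq start site in GRCm38.p6, on the strand of the gene, with every CG in capitals. The window of Pfn1 is chr11:70654601-70654900 on the minus strand, that of Pfn2 chr3:57847708-57848007 on the minus strand and that of Pfn4 chr12:4769045-4769344 on the plus strand.
Pfn1: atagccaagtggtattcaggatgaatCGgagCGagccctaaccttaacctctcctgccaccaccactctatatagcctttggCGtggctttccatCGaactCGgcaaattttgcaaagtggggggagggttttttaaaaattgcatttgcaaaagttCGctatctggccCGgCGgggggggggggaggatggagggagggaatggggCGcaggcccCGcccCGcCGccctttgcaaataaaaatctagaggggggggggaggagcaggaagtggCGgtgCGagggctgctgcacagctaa
Pfn2: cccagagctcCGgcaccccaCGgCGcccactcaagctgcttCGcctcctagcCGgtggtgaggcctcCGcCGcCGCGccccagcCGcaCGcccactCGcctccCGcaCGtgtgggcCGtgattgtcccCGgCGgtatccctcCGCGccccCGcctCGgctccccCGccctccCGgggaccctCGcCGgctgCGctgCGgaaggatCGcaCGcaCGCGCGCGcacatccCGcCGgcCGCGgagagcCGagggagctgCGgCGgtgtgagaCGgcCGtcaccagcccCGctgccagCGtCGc
Pfn4: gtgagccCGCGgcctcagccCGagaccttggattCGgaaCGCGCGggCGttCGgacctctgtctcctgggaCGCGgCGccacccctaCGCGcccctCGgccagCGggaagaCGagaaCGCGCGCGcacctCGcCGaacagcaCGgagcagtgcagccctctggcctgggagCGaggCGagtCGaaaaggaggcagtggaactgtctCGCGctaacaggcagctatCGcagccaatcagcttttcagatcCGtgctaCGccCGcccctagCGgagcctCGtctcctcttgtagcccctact
The gene with the highest level had the fewest CpGs. The Pfn1 window held 14, an observed over expected ratio of 0.600. The windows of the 2 profilins under the reference level held 45 and 35, with ratios of 1.03 for Pfn2 and 1.05 for Pfn4.

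The capping genes Capza1 and Capzb came next by level, too close to Pfn1 to be read as an order of transcript abundance. Capping protein is a dimer of an alpha and a beta chain that closes the fast-growing end of a filament. Its chains Capza1 and Capzb read 1252 and 1039, closer to each other than the rows of a gene usually are, and Capza2 read 497. Capza3, the alpha chain known from sperm, read 4.20, and its annotated expression was limited to adult and testis. The second row of Capza1 read 1093, close to the row kept. Flii, a gelsolin relative, read 232. Among capping and severing genes outside the group, Capg, the macrophage capping protein, was highest at 1569, followed by Add1, an adducin, at 242.

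Genes that start branched filaments were represented by Wasf2 and Wipf1. Wasf2, or WAVE2, turns Rac signals into Arp2/3 activity and read 946. Wipf1, which stabilises WASP in blood cells, read 444. Among their partners outside the group, Nckap1l, the blood-cell WAVE complex subunit, read 1695 and Hcls1, the blood-cell relative of cortactin, read 725. The Arp2/3 complex itself, with no gene in the group, had a median of 463 over 9 measured genes, led by Arpc1b at 2863 and Arpc2 at 1662.

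Formins build unbranched filaments and made up the largest family, with 14 genes. Their median was 47.9. Fmn1, the first formin described, read 187. The diaphanous formins Diap2 and Diap1, which are effectors of small GTPases, read 182 and 171, so these 3 could not be ordered. A broad middle group followed, with Fmnl3 at 131, Fmnl2 and Fhod1 at 64.1 each, Daam1 at 50.2, Inf2 at 45.7 and Diap3 at 40.9. Diap3, the only formin with a second row that names it alone, read 13.9 there. Fhod1 also had a row shared with another gene, at 83.9. Another 5 formins were under the reference level: Fhod3 at 8.91, Grid2ip at 7.60, Fhdc1 at 6.88, Daam2 at 4.83 and Fmn2 at 3.46. Thus 9 of 14 formins were above the reference, with no single dominant paralog. In the Ena/VASP family, whose proteins keep growing ends open, Vasp read 89.3 and Enah 6.26.

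**Figure D2:**
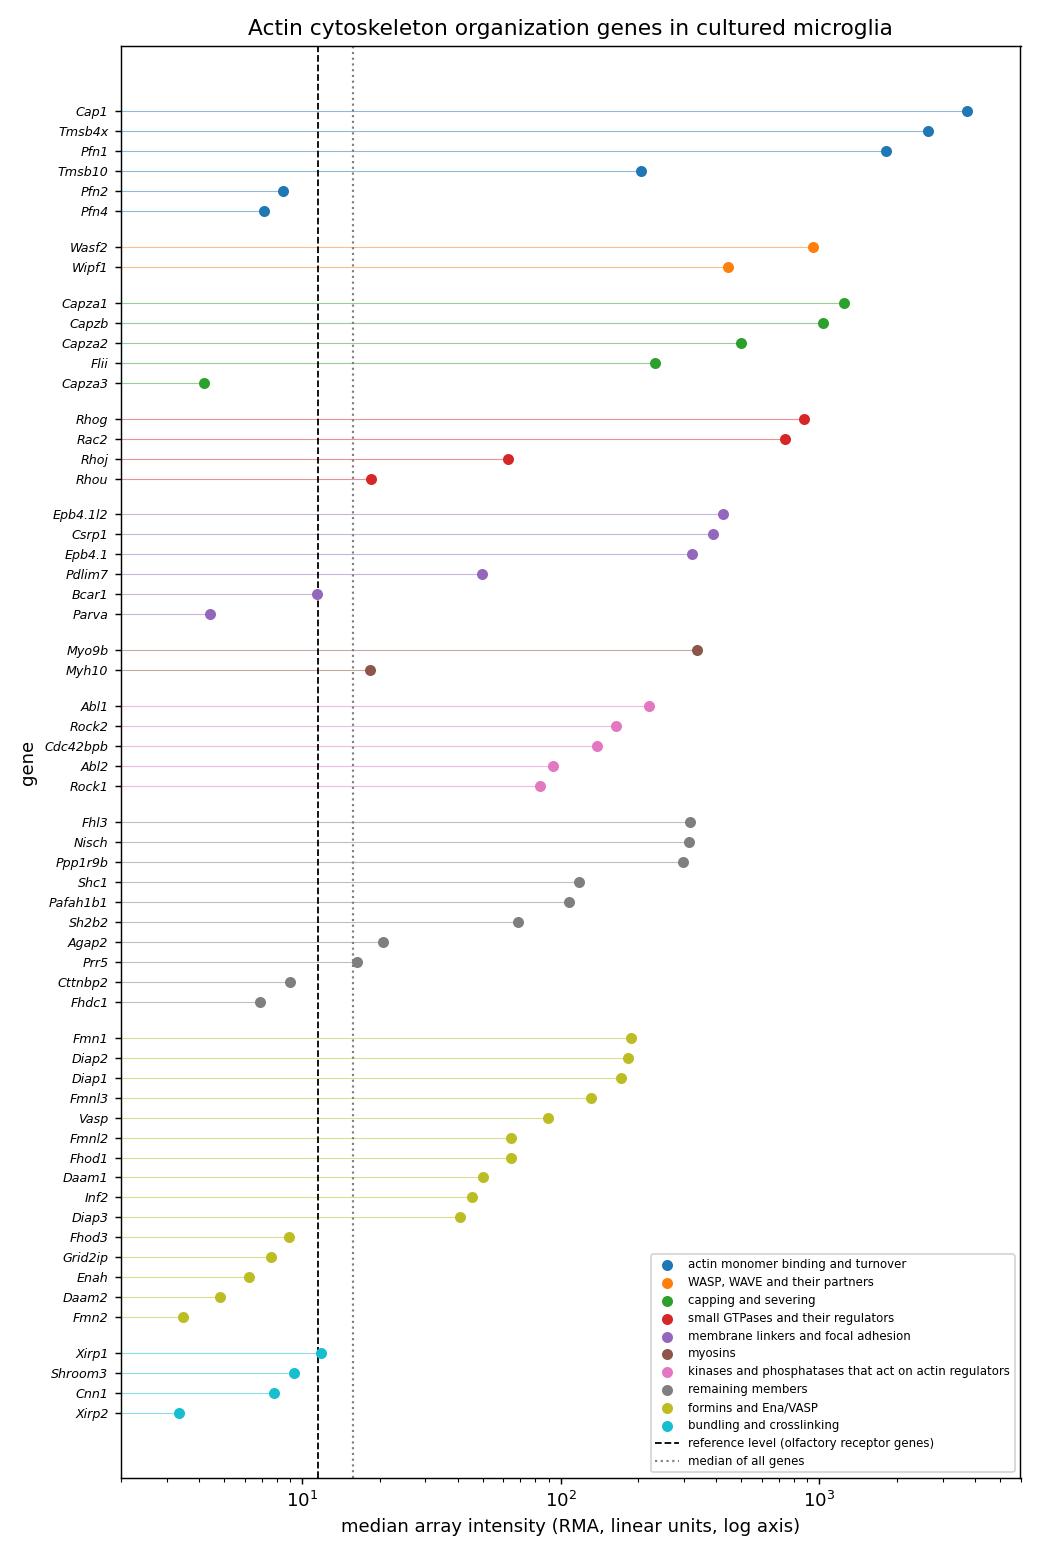
Median array intensity (RMA, linear units on a log axis) of 59 of the 60 genes, 1 point a gene, grouped and coloured by role. The dashed line is the reference level of 11.5 and the dotted line the median of all genes, 15.8. Monomer-binding genes reach 3742, the formins stop at 187, and all 4 bundling genes sit at 11.9 or less.

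Small GTPases of the group split into a high and a low pair. Rhog, which acts upstream of Rac in engulfment, read 873, and Rac2, the Rac of blood cells, read 736. Rhoj, known from endothelium, read 62.5, and Rhou read 18.5, 47.3-fold under Rhog. The listed genes outside the group were led by Rhoa at 3707 and Cdc42 at 2680. The 5 kinases that act on actin regulators all lay between 83.1 and 220. Abl1, a tyrosine kinase, read 220 and its relative Abl2 93.9. Rock2 and Rock1, kinases that raise myosin contractility, read 164 and 83.1, a difference of 1.97-fold that is no larger than the spread between rows of a gene. The second row of Rock2 read 3.58, so its level depended on the row. Cdc42bpb, a Cdc42-binding kinase of the MRCK family, read 138. Outside the group Pak2, a Rac and Cdc42 effector kinase, read 649 and Lyn, a Src family kinase, 576.

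Genes that link filaments to membrane and adhesions covered a wide range. Epb4.1l2 and Epb4.1, band 4.1 proteins that tie spectrin and actin to the membrane, read 425 and 321. Csrp1, a LIM protein of actin bundles, read 389, and Pdlim7 read 49.9. Bcar1, the focal adhesion scaffold p130Cas, read 11.4. Parva, which joins integrin-linked kinase to actin, read 4.43. Outside the group, Msn, the membrane linker moesin, read 2119 and Itgb2, the leukocyte integrin beta chain, read 1189.

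The 4 bundling and crosslinking genes were the lowest role, with a median of 8.58. Xirp1 and Xirp2, filament-binding proteins of striated muscle, read 11.9 and 3.34. Shroom3, which drives apical constriction in epithelia, read 9.35. Cnn1, the smooth muscle calponin, read 7.81. Bundling genes outside the group were not all low: Lcp1, the leukocyte plastin, read 2572 and Coro1b, a coronin, 882. Of the myosins, Myo9b, a motor that also carries a GTPase-activating domain, read 338 and Myh10, nonmuscle myosin IIB, 18.3, while Myo1f and Myl12b outside the group read 941 and 890.

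The remaining 11 genes, which fit no role list, had a median of 108. Fhl3, a LIM-domain protein, Nisch, an integrin-binding protein, and Ppp1r9b, the actin-binding scaffold spinophilin, were the highest at 317, 313 and 296. Shc1, a signalling adaptor, read 118 and Pafah1b1, the dynein regulator Lis1, 108. Sh2b2, another adaptor, read 68.2, and Agap2 and Prr5 were low at 20.7 and 16.4. The lowest was Fhdc1, counted with the formins above, and Cttnbp2, a neuronal cortactin-binding protein, read 9.0.

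Paralogs were compared in 13 families, chosen after the values were seen, with 39 genes of which 19 belong to the described group. In 8 families at least 1 gene was above the reference level and at least 1 was not. Of all genes 56.5% were above it, and whether families of random genes would be mixed as often was not tested. Other families had every gene compared above it. Among them were myosin IX, at 338 and 261, and the MRCK kinases, with the lowest at 17.7. The family that ties spectrin and actin to the membrane was another, with the lowest at 55.9. Cap2, the paralog of Cap1 known from striated muscle, read 7.09, under the reference level. Wasf3 and Wasf1, the paralogs of Wasf2, were also under it at 7.68 and 7.20. No fold is given against a gene under the reference level. In the families of Cap1 and Wasf2 the described gene was the high one. The profilins compared were all described genes, and Pfn1 was the high one among them.

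In the parvin, Ena/VASP, nonmuscle myosin II and calponin families the high paralog lay outside the group. Parva was under the reference level, while Parvg, the parvin of blood cells, read 229 and Parvb 206. Enah was under it as well, while Evl, an Ena/VASP protein of blood cells, read 451, with Vasp 5.05-fold below Evl. Myh10 was 25.4-fold below Myh9, nonmuscle myosin IIA, at 464. Cnn1 was under the reference level, while Cnn2 read 52.5. All 4 Shroom genes were under the reference level. Rac2 and Rac1, the latter left out of the group by rule, could not be told apart at 736 and 723, while Rac3 read 58.6. Each of Parva, Enah, Myh10 and Cnn1 thus had a paralog above the reference level.

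**Figure D3:**
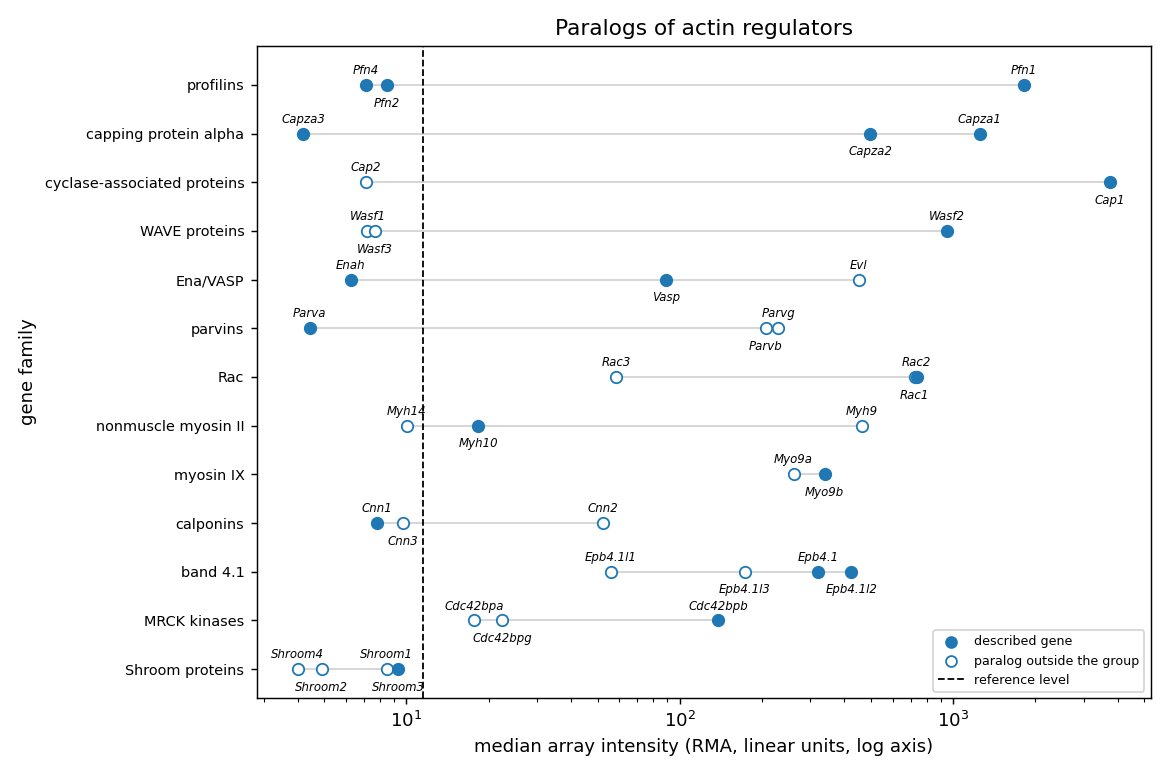
Median array intensity (RMA, linear units on a log axis) of 39 genes in 13 families, with filled points for the described genes and open points for their paralogs. The dashed line is the reference level of 11.5. Single high paralogs stand far to the right for the profilins, cyclase-associated and WAVE proteins, while Parva, Enah and Myh10 lie left of paralogs outside the group.

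Annotation fields that the choice did not use also placed most genes at actin itself. They describe the same genes as the term used for the choice, so they are no independent support. Actin binding was recorded for 41 of the 60 genes, out of 248 genes that carry this function in the table. The KEGG pathway for regulation of the actin cytoskeleton held 13 of the 60 (21.7%), beside 1.05% of all genes. The 4 genes of the F-actin capping protein complex, all in the group, had a median of 768. The 12 genes of the group annotated to cell junctions had a median of 11.6, and the 4 annotated to focal adhesions a median of 8.84. The 7 genes of the group annotated to lamellipodia, the thin sheets at the front of a moving cell, had a median of 89.3. The low focal adhesion median holds for these 4 genes only. Outside the group, the 33 measured membrane linker and focal adhesion genes had a median of 114, with 27 above the reference level.

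Breadth of expression, as the number of tissues and stages with UniGene transcripts, was larger for the high genes. The 10 highest genes had a median of 40.5 tissues and stages and the lowest 10 a median of 13, beside 19 over all genes. Fhdc1, among the lowest 10, had none recorded and counted as 0. The 45 genes above the reference level had a median of 35, and the 15 not above it a median of 19, the same as all genes. Some genes went against this order. Parva with 41, Enah with 39 and Bcar1 with 39 were broad but under the reference level, and Fhl3 read 317 with only 7 tissues and stages.

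Promoter windows were found for 52 of the 60 genes, 4 of them through an older symbol, with 70 start sites. Those not matched included Capza3, Diap1, Fhod3, Parva, Rac2, Rock1 and Xirp1. The 70 windows found had a median observed over expected CpG ratio of 0.693, beside 0.384 for the 32851 windows in the table. The motif GGGCGG, searched on both strands, stood in 74.3% of the windows against 35.7% of all windows. TATAAA, also searched on both strands, stood in none of the 70, against 13.6% of all windows. All windows here means those of 27025 genes, not cut to the genes of the array or to genes of similar level. Each start site of a gene counted as its own window, and some of these overlap. Whether the differences are particular to actin genes was not tested. CpG content did not separate high from low genes: the median ratio over genes was 0.707 for the 40 above the reference level and 0.764 for the 12 that were not. The windows of the 2 highest genes themselves differed, with a ratio of 0.476 for Cap1 and 0.988 for Tmsb4x.

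**Figure D4:**
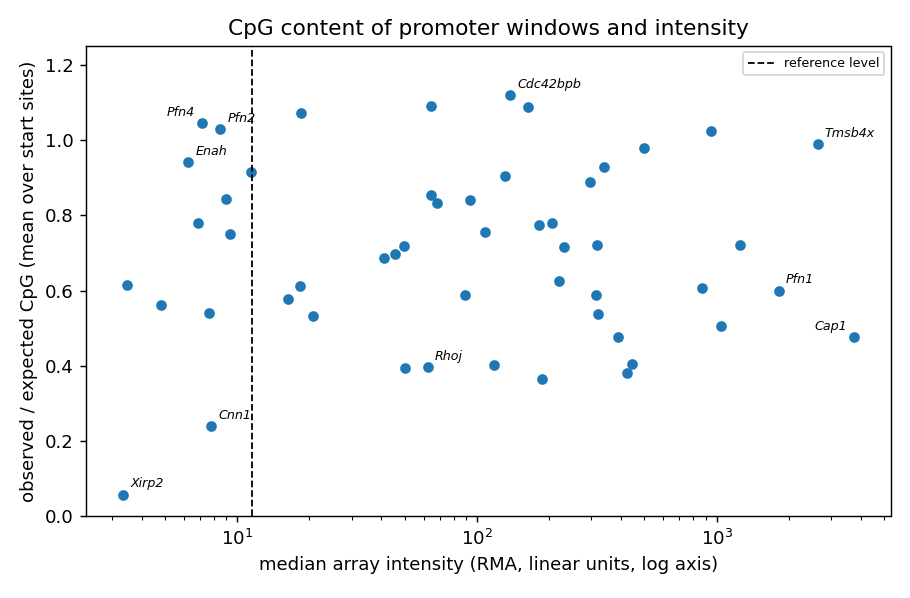
Observed over expected CpG ratio of the promoter windows (mean over the start sites of a gene) against median array intensity (linear units on a log axis), 1 point for each of 52 genes. The dashed line is the reference level. High ratios occur on both sides of it, with medians of 0.707 above and 0.764 not above.

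The CArG box, the motif bound by serum response factor, a known regulator of actin genes, was found in 1 of the 70 windows (1.43%), beside 1.63% of all windows. It lay in the window of Rhoj, chr12:75308063-75308362 on the plus strand of GRCm38.p6, and began 3 bases past the start site. The box is in capitals because it was the only match among these genes.
Rhoj: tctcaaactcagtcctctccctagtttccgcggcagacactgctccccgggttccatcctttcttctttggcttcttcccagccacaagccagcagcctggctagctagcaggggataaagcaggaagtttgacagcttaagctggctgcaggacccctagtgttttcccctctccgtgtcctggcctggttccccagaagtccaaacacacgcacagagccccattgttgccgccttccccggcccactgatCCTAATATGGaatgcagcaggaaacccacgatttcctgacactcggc
A match is a description of letters in this window and says nothing of binding. Rhoj read 62.5.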

How the data were processed

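RNA of microglia, control or given TGFb1, was read on 10 Affymetrix whole-transcript arrays, 5 for each group. The authors deposited 1 table of linear intensity values that were processed with RMA per the submitters' processing notes; its version, the array model and the genome build are not given in the sources used here. Of 28361 rows, 21041 named 1 gene symbol, 2247 named several, 5061 named none and 12 held a date, and 18976 genes were kept with 1 row each. The only values used were the authors' median expression intensity per row.

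The table also has 10 columns of values per array whose names match no sample label, and these were used in no step. Another 5 columns hold the authors' own comparison of the groups (effect sizes, log2 and paired effects, p-values and false discovery rates), and these were not used. The planned limma fit of TGFb1 against control could therefore not be made, and no test was run. Levels, percentiles, family ratios and promoter motifs were computed with Python 3.11.15, numpy 2.4.6 and pandas 2.3.3. The choice of genes was tested on simulated rows.

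The reference level, the 95th percentile of olfactory receptor genes, and the paralog families were chosen after the data were seen, and the members and lists were chosen with earlier results of these data known. Genes named in a role list were the 3 highest, with the 10 highest and 5 lowest of all 60 and up to 2 examples outside the group; others were named after their values were seen. Promoters are RefSeq windows of GRCm38.p6. The number of arrays limits the precision. The level of 1 of the 60 genes is not reported here by name and is not plotted, but it is part of the counts and medians.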

Additional observations from a re-analysis of the deposited data

How the results depend on the processing

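The choice of row moved the median level of the 60 genes from 91.6 to 86.2 with the lowest row of each gene and to 86.5 with the mean of the rows. Adding the 8 rows with several symbols, each counted as a row although some name the same genes, gave a median of 75.6 over 68 entries, and adding the genes left out by rule gave 96.2 over 66 genes. Any biological process entry with the word actin gave 145 genes with a median of 68.2, of which 71 were above the upper quartile of all genes and 105 above the reference level. The number of the 60 genes above the reference level, 45 as reported, was 51 with the 90th percentile of the olfactory receptor genes (7.72) and 54 with vomeronasal receptor genes (6.75), both chosen after seeing the data. Single genes with 2 rows moved most for Rock2, from 164 to 3.58, and for Diap3, from 40.9 to 13.9, with their lowest rows.

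No paired analysis was possible because the columns per array match no sample label. For the same reason the alternatives that need values per array (no replicate block, each replicate left out, filters on low values, other variance, centring and threshold settings) were not run. Differences of a few fold between genes cannot be separated from differences between probes.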
